A study of Mus musculus with 6 samples.

Results

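The Pramel and Pramef genes are the mouse Prame family, and 9 autosomal members of it are described here by the DPPA4 binding around them. They were taken by name from the GENCODE vM21 annotation of mm10. They are Pramel6 and Pramel7 on chromosome 2, and Pramel1, Pramef8, Pramef25, Pramef17, Pramel4, Pramel5 and Pramef12 on chromosome 4. All peaks within 50 kb of each gene body were collected from the peak list of GFP-negative cells and from that of GFP-positive cells. This gave 12 GFP-negative peaks of 85177 in that list and 40 GFP-positive peaks of 54647, each counted once.

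The cells were mouse embryonic stem cells (mESCs) of a BL6/129 hybrid background, grown in serum with LIF. Their endogenous EHMT2 had been modified and a reporter had been added (EHMT2-dTAG-mCherry, MERVL-GFP). EHMT2 is a histone methyltransferase of the repressive H3K9me2 mark, and the dTAG fused to it allows its degradation by a small molecule. The reporter places GFP under the MERVL retroviral promoter, which is active in 2-cell-like cells (2CLCs), so that GFP-negative cells stand for mESCs and GFP-positive cells for 2CLCs. Both groups had received dTAG for 72 h before the sort, so EHMT2 was depleted in both and no cells with EHMT2 enter the comparison. DPPA4, a DNA-binding protein of pluripotent cells and early embryos, was profiled by CUT&RUN, in which an antibody directs a nuclease to bound chromatin. Each list was made from both DPPA4 libraries of a group together (2 libraries per list), which leaves every value below without a replicate error and any difference between the lists untested. The authors' methods state a sequencing depth per sample, but the reads left after filtering behind each list are unknown, and more reads give more peaks. The lists hold no expression values, so neither the sorted cell states nor the expression of the genes could be checked in them.

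Prame-family proteins are built of leucine-rich repeats, and human PRAME, a tumour antigen, acts as a substrate receptor of a cullin ubiquitin ligase. The family has expanded in the mouse by tandem duplication, mostly in a single stretch of chromosome 4, and its members are used in the germ line, the cleavage embryo or pluripotent cells. Pramel6 and Pramel7 are genes of the inner cell mass and of naive mESCs, and Pramel7 lowers DNA methylation by directing UHRF1 to degradation. From this background, and not from these files, Pramel4, Pramel5, Pramel6 and Pramel7 were counted as genes of pluripotent stages, and Pramef17 and Pramef25 as genes of the 2-cell stage. Pramel1, a gene of the testis, Pramef12, a gene of spermatogonia, and Pramef8 made up the rest. No stage is given here for Pramef8, so its place in the rest is uncertain.

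DPPA4 summits lay within the promoters (2.5 kb upstream to 0.5 kb downstream of a start) of Pramel1, Pramef8 and Pramef12 in both lists, and in none of the promoters of the other 6 genes. The sequences at the promoter summits of Pramel1 and Pramef12 are given first, because these were the sites at the genes themselves that both cell populations shared. Each is the 101 bp centred on the summit, read from GRCm38.p6 (mm10) on the strand of the gene, with CpG dinucleotides in capitals. The Pramel1 window spans chr4:143394305-143394405 on the plus strand and the Pramef12 window chr4:144408452-144408552 on the minus strand.
Pramel1: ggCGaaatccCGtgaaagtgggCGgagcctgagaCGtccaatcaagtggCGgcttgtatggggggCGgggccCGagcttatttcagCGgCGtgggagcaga
Pramef12: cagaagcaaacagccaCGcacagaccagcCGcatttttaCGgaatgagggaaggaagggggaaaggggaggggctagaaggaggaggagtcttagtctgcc
The Pramel1 window held 9 CpGs and the Pramef12 window 3. The window of the same size at the Pramef8 promoter, chr4:143412646-143412746, held 9 CpGs. All 3 windows had a copy number of 1, meaning that the median count in the genome of the 31-base words in the 200 bp around the summit was 1.

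The strongest GFP-positive-specific regions of the family, that is, regions with a peak in the GFP-positive list and none in the GFP-negative list, had other sequences. Near the chromosome 4 genes a pair of regions tied for the highest −log10 q, the authors' significance of a peak. The summit window of the first, chr4:143948860-143948960, lies in coding sequence of Pramef25. The summit window of the second, chr4:144229337-144229437, lies downstream of Pramel5. Near Pramel6 and Pramel7 the strongest was chr2:87519986-87520086. All are given on the plus strand with CpGs in capitals.
Pramef25 gene body: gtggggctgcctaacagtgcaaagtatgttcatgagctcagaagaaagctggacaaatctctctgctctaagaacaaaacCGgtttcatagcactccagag
downstream of Pramel5: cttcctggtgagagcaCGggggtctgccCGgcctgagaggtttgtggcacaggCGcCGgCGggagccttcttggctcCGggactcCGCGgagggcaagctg
near Pramel6 and Pramel7: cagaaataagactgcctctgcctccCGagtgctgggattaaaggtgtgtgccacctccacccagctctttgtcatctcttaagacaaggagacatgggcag
The Pramef25 window held 1 CpG and had a copy number of 5. The window downstream of Pramel5 held 8 CpGs and had a copy number of 295. The chromosome 2 window held 1 CpG and had a copy number of 1. A read that matches many places was set at a single best position, at random among equal matches. A peak with a copy number above 1 may thus show binding at that sequence without showing at which copy. The words behind the copy number are shorter than the sequenced reads, so reads at such a summit may still match a single place best. Whether they did was not tested.

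Of the members, 8 of 9 had more peaks within 50 kb in the GFP-positive than in the GFP-negative list, against 18.1% of 20807 autosomal protein-coding genes. At least 1 GFP-negative peak lay near 8 of 9 members (92.9% of all genes), and at least 1 GFP-positive peak near 9 of 9 (91.4%). Across all genes the median was 7 GFP-negative peaks (quartiles 3 and 15) and 5 GFP-positive peaks (quartiles 2 and 10). All 9 genes were thus below the median of the GFP-negative list, while 5 were above that of the GFP-positive list. With summits of copy number 1 alone, 6 of 9 members had more GFP-positive peaks, against 12.7% of all genes, and Pramef25 and Pramel5 had equal numbers in both lists. Equal numbers were also found within 20 kb at Pramef8 (2 and 2) and Pramel5 (0 and 0). At a −log10 q of at least 5 they were found at Pramef12 (2 and 2), Pramel6 and Pramel7 (0 and 0 each). The share of all genes was not counted at these settings. The windows of neighbours overlap, so these counts are not independent of each other.

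**Figure D1:**
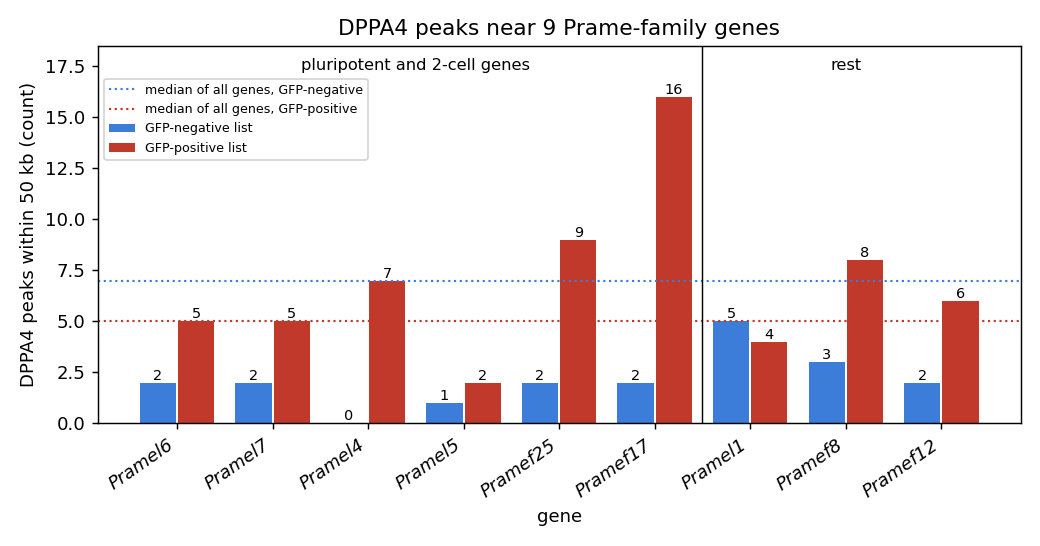
Number of DPPA4 peaks within 50 kb of each gene body (y axis) in the GFP-negative (blue) and GFP-positive (red) list for the 9 genes, with dotted lines at the median of all autosomal protein-coding genes. GFP-positive bars are higher for every gene but Pramel1 (5 against 4), and the widest gap is at Pramef17 (2 against 16).

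Among the genes of the 2-cell stage, Pramef17 (chr4:143991119-143994369, minus strand) had 2 GFP-negative and 16 GFP-positive peaks. An excess of 14 or more GFP-positive peaks was found at 0.490% of all genes. Pramef25 (chr4:143948580-143951016, minus strand), its neighbour in the cluster, had 2 GFP-negative and 9 GFP-positive peaks, and 2.26% of all genes had an excess of 7 or more. The windows of this pair overlap and together held 17 GFP-positive peaks, 11.7 per 100 kb, against 1.37 per 100 kb in the GFP-negative list. GFP-positive peaks covered 15.9% of the joint window and GFP-negative peaks 0.369%. Across the autosomes the covered share was 2.26% and 2.75%. Most of these peaks lay in sequence with more than 1 copy. With summits of copy number 1 alone, GFP-positive peaks numbered 3 at Pramef17 and 1 at Pramef25, against 1 GFP-negative peak at each. The joint window then held 2.06 GFP-positive peaks per 100 kb, against 1.60 on the autosomes, and 0.686 GFP-negative peaks, against 2.92. Its length still included sequence with more than 1 copy, which lowers these densities, so the comparison is not like for like.

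At Pramef25 itself, a GFP-positive peak of 2390 bp (chr4:143948248-143950637) lay over 84.4% of the gene body, with a fold enrichment of 6.97 and a −log10 q of 9.12. Fold enrichment is the summit's fragment number divided by the local background, as the authors' peak caller gave it. No GFP-negative peak touched the gene. At Pramef17, a GFP-positive peak of 290 bp in an exon (fold enrichment 3.47, −log10 q 2.09) covered 8.92% of the gene, and again no GFP-negative peak touched it. The only common region of the pair, chr4:143983588-143984345, lies between both genes. Its fold enrichment was 5.70 among GFP-negative and 4.66 among GFP-positive peaks.

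Between Pramef17 and Pramel4 lay the widest peak near any member, of 4172 bp (chr4:144006602-144010773), found in the GFP-positive list alone. Its fold enrichment was 6.29 and its −log10 q 7.80. The summit had a copy number of 358, and all of the 200 bp around it was soft-masked, the mark of repeats in the reference (100%).

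**Figure D2:**
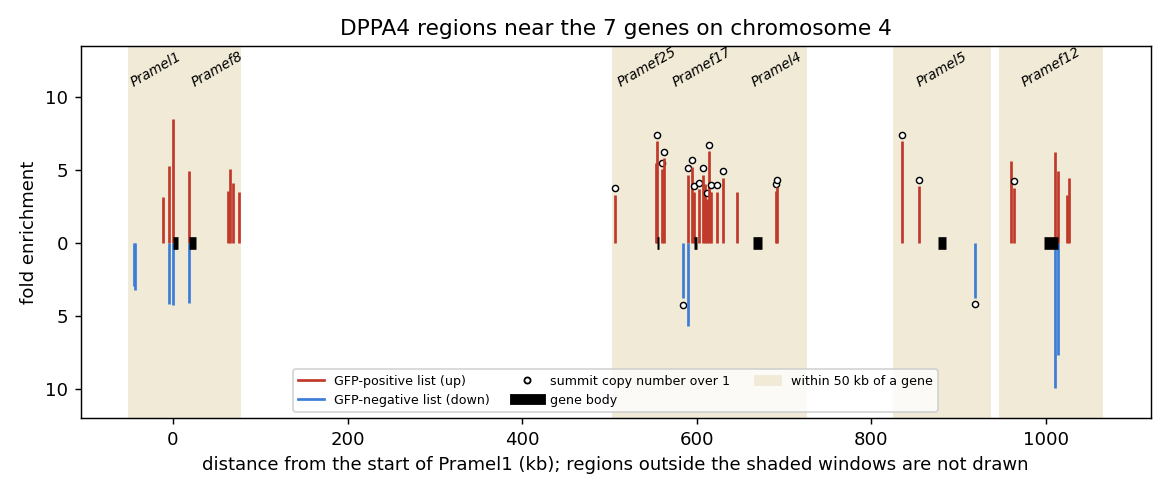
Fold enrichment (y axis) of the DPPA4 regions within 50 kb of the 7 chromosome 4 genes, for the GFP-positive list upward in red and the GFP-negative list downward in blue, against distance from the start of Pramel1 (x axis, kb); open circles mark summits with a copy number over 1. Around Pramef25 and Pramef17 the bars are nearly all red and most carry a circle. Around Pramel1 and Pramef12 the common regions, 3 and 2, have red and blue bars and no circle, beside 3 and 4 regions with a bar of a single colour.

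Of the genes of pluripotent stages on chromosome 4, Pramel4 (chr4:144059126-144069327, plus strand) was the only member with 0 GFP-negative peaks, against 7 in the GFP-positive list. With a copy number of 1 there was 1 GFP-positive peak. Of the 7 peaks, 5 also lay within 50 kb of Pramef17, and the summit nearest to the Pramel4 start was 18044 bp away. Pramel5 (chr4:144270633-144280488, minus strand) had 1 GFP-negative peak with a fold enrichment of 3.75. It had 2 GFP-positive peaks, with fold enrichments of 6.97 and 3.90, and all 3 of its peaks had a copy number above 1. The summits nearest to the Pramel5 start were 32483 bp (GFP-negative) and 31961 bp (GFP-positive) away. No peak of either list touched the body of Pramel4 or Pramel5.

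Pramel7 (chr2:87489087-87497093, minus strand) and Pramel6 (chr2:87506565-87510872, plus strand), the pair of the naive state, lie close together and shared all their peaks. There were 2 GFP-negative and 5 GFP-positive peaks, and none reached a −log10 q of 5. The strongest region, chr2:87481288-87481680, was common, with a fold enrichment of 4.74 in GFP-negative and 4.66 in GFP-positive cells. A GFP-positive peak in an intron of Pramel7 (chr2:87495681-87496337) had its summit 786 bp inside the gene, and with a fold enrichment of 3.27 and a −log10 q of 1.44 it was near the lowest deposited value of 1.30. The remaining 3 GFP-positive peaks lay downstream of Pramel6, with fold enrichments from 3.15 to 3.74. In contrast to the chromosome 4 genes of this group, 0 of the 6 regions around Pramel6 and Pramel7 had a copy number above 1.

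**Figure D3:**
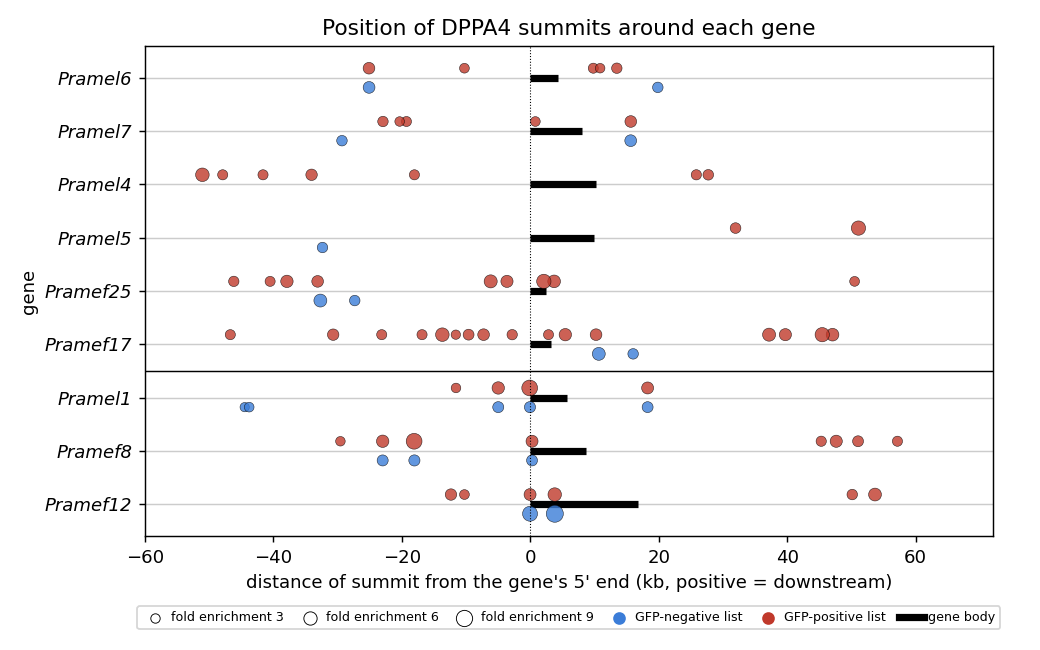
Distance of each DPPA4 summit from the 5' end of the gene (x axis, kb, positive downstream) for the 9 genes (y axis), with GFP-negative summits in blue below and GFP-positive summits in red above each line, point area proportional to fold enrichment, and gene bodies in black. Summits of both lists sit at the start of Pramel1, Pramef8 and Pramef12, and of the 6 genes above the dividing line Pramel7 has the nearest, a GFP-positive summit 786 bp inside the gene; neighbours share summits.

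The rest of the family differed from these genes at the promoter. A summit lay in the promoter, counted from any annotated start, in 3 of 3 genes of the rest and in 0 of 6 genes of pluripotent and 2-cell stages, in both lists alike. Over all genes the share was 69.6% for GFP-negative and 61.0% for GFP-positive peaks. With a promoter of 1 kb either side of a start, the GFP-positive list had a summit at 1 of the 6 genes as well (60.9% of all genes). This was the weak intron peak of Pramel7, whose summit lay 583 bp downstream of the nearest start. Pramel1 (chr4:143394428-143400160, plus strand) had its GFP-negative summit 51 bp and its GFP-positive summit 94 bp upstream of the start. In the GFP-negative list the fold enrichment there was 4.27 (−log10 q 2.89), and in the GFP-positive list it was 8.51 (−log10 q 12.4). Whether these values differ beyond replicate error cannot be told from pooled lists.

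Pramef8 (chr4:143412426-143421091, plus strand) had its summit at the same base in both lists, 270 bp downstream of the nearest start. Its fold enrichment was 4.09 in GFP-negative cells (−log10 q 5.50) and 4.91 in GFP-positive cells (−log10 q 8.21). Pramef12 (chr4:144391674-144408464, minus strand) had summits 40 bp (GFP-negative) and 37 bp (GFP-positive) upstream of the start. There the fold enrichment was 7.65 in GFP-negative cells (−log10 q 10.3) and 4.92 in GFP-positive cells (−log10 q 4.14). The strongest GFP-negative peak near any member also lay within Pramef12, in the region chr4:144404366-144405023 at the promoter of the antisense gene Pramef12os. Its fold enrichment was 9.93 in GFP-negative and 6.20 in GFP-positive cells. CUT&RUN reads carry no strand, so binding there cannot be assigned to either gene.

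When any overlap of a peak with the promoter was counted in place of its summit, a choice made after seeing the data, GFP-positive peaks were found at 5 of 9 promoters and GFP-negative peaks at 3. The added genes were Pramef25 and Pramef17. The Pramef17 peak (chr4:143996500-143997413, fold enrichment 3.68) had its summit 2820 bp upstream of the start, outside the window. The Pramef25 peak was the wide one over the gene body.

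Around the remaining windows, Pramel1 had 5 GFP-negative and 4 GFP-positive peaks, and was the only member with fewer GFP-positive ones (47.0% of all genes had a difference as high or higher). This order at Pramel1 held at 50 kb alone among the window sizes, with 3 and 4 peaks within 20 kb and 14 and 14 within 100 kb. At a −log10 q of at least 5 Pramel1 had 1 and 3. Within 50 kb, Pramef8 had 3 and 8. Of its 8 GFP-positive peaks, 4 were GFP-positive-specific sites past the 3' end of the gene with fold enrichments from 3.51 to 5.05, while 3 of 3 GFP-negative peaks were in common regions. Pramef12 had 2 and 6, and again both GFP-negative peaks were in common regions.

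Set side by side per list, the groups had the same density of GFP-positive peaks and unlike densities of GFP-negative peaks. The 6 genes of pluripotent and 2-cell stages had 26 GFP-positive peaks over 452.39 kb, 5.75 per 100 kb. The 3 genes of the rest had 14 over 243.455 kb, also 5.75 per 100 kb. In the GFP-negative list there were 5 peaks, 1.11 per 100 kb, against 7 peaks, 2.88 per 100 kb. The autosomes had 3.33 GFP-negative and 2.16 GFP-positive peaks per 100 kb. Both groups were thus above the autosomes in the GFP-positive list and below them in the GFP-negative list. In the GFP-negative list the genes of pluripotent and 2-cell stages were further below. For the rest, the GFP-negative density was above that of the autosomes with windows of 20 kb (4.05) or 100 kb (4.06) and without Pramef12 (3.95). It stayed below without Pramel1 (2.22) or Pramef8 (3.15). With peaks whose summit had a copy number of 1 alone, the GFP-positive density was 1.77 per 100 kb for the genes of pluripotent and 2-cell stages. For the rest it was 5.34. The equal densities thus rested on peaks in sequence with more than 1 copy. On the autosomes the density was then 1.60, so the genes of pluripotent and 2-cell stages were only slightly above it. The GFP-negative densities were then 0.663 and 2.88, against 2.92 on the autosomes. All of these densities divide by the full window length, sequence with more than 1 copy included. That lowers them most where such sequence is common, so the groups and the autosomes are not compared like for like. With Pramel4 and Pramel5 moved to the rest, the GFP-positive density was 8.22 for the remaining 4 genes and 4.96 for the rest, and the GFP-negative density 1.49 and 1.73.

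Within the genes of pluripotent and 2-cell stages the density of GFP-positive peaks was uneven. It was 11.7 per 100 kb at Pramef17 and Pramef25, 4.11 at Pramel6 and Pramel7, and 4.09 at Pramel4 and Pramel5. In the GFP-negative list the same pairs had 1.37, 1.64 and 0.454 per 100 kb. The fold enrichment of the family's peaks was close to that of the autosomes, with medians of 4.13 against 4.27 for GFP-negative and of 4.07 against 4.09 for GFP-positive peaks. A −log10 q of at least 5 was reached by 4 of 12 GFP-negative peaks (33.3%, against 41.3% on the autosomes) and by 11 of 40 GFP-positive peaks (27.5%, against 37.2%).

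Merging the lists wherever peaks overlapped by 1 bp or more gave 45 regions near the members. Of these, 33 were GFP-positive-specific (73.3%, Wilson 95% interval 59.0 to 84.0), against 18.3% of 97623 autosomal regions. A further 7 were common (15.6%, against 34.6%) and 5 GFP-negative-specific (11.1%, against 47.1%). Among the genes of pluripotent and 2-cell stages 24 of 29 regions were GFP-positive-specific (82.8%, 65.5 to 92.4). Among the rest they were 9 of 16 (56.2%, 33.2 to 76.9), and the intervals of both groups overlap. The intervals allow for counting error alone, as if adjacent regions were unrelated. By gene, GFP-positive-specific regions were 15 of 17 at Pramef17, 8 of 10 at Pramef25, 7 of 7 at Pramel4, 4 of 6 at Pramel6 and Pramel7, 2 of 3 at Pramel5, 5 of 8 at Pramef8, 4 of 6 at Pramef12 and 1 of 6 at Pramel1.

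**Figure D4:**
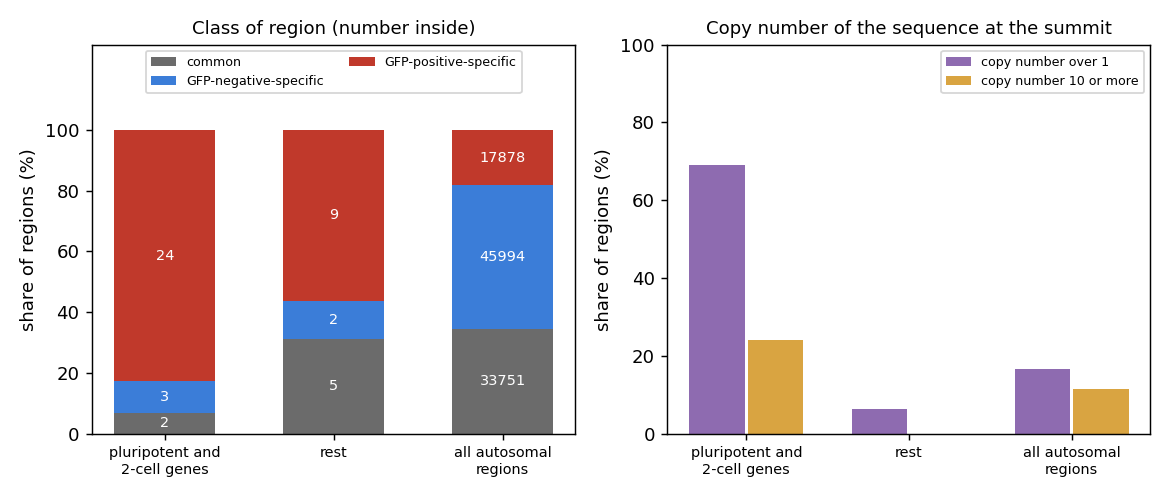
Left, share of regions (y axis, %) in each class near the genes of pluripotent and 2-cell stages, near the rest and on all autosomes, with the number of regions inside the bars; right, share of the same regions (y axis, %) whose summit sequence has a copy number over 1 or of 10 or more. GFP-positive-specific regions make up 82.8%, 56.2% and 18.3% of the bars on the left, and copy numbers over 1 are found at 69.0%, 6.25% and 16.6% of regions on the right.

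The sequence under the summits also differed between the groups. A copy number above 1 was found at 20 of 29 regions near the genes of pluripotent and 2-cell stages (69.0%) and at 1 of 16 near the rest (6.25%), against 16.6% of autosomal regions. A copy number of 10 or more was found at 7 regions, all near the chromosome 4 genes of the first group (24.1% of its regions, against 11.6% of autosomal regions). Most of the repeated summits around Pramef25 and Pramef17 had a copy number from 2 to 5. Of the 45 regions, 13 shared an exact 31-base word with another of the 45. By class these were 12 of 33 GFP-positive-specific, 1 of 7 common and 0 of 5 GFP-negative-specific regions. GFP-positive-specific regions made up 73.3% of the 45, and no such sharing was counted for regions elsewhere. The 13 regions formed 10 pairs, 7 within chromosome 4 and 3 between chromosomes 2 and 4. In 7 pairs the longest exact match was only 31 to 52 bp. In the other 3 pairs, all on chromosome 4, it was 97, 203 and 357 bp, the longest between the common region chr4:143983588-143984345 and the GFP-positive-specific region chr4:143988442-143989122. The autosomal GFP-positive-specific regions had a copy number above 1 in 35.7% of cases, and those of the family in 54.5%. Among summits with a copy number of 1, 15 of 24 regions near the members were GFP-positive-specific (62.5%), against 14.1% of autosomal regions. The part of read placement in the difference between the lists was not tested.

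By position, 5 of the 7 common regions were at promoters and 2 were intergenic. Of the 33 GFP-positive-specific regions, 23 were intergenic, 4 were at promoters, none of them a member's, 3 were in exons and 3 in introns. The positions of all autosomal regions were not counted beside these. The authors report a like tendency over all DPPA4 sites, in a set smaller than either list used here. Shared sites were enriched for promoters, and state-specific sites lay more often in introns or between genes. These positions are thus not shown to be particular to the family. The median number of CpGs in the 200 bp around the summit was 7 in common and 2 in GFP-positive-specific regions, and 9 and 3 on the autosomes.

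The annotated promoters of the members differed in the same feature. RefSeq promoter sequences (GRCm38.p6, 250 bases before to 50 after the start) matched 8 of 9 genes by symbol or synonym, and Pramef8 had no entry. Pramel1 had 20 CpGs in its 300 bp, a number that 26.5% of 32851 promoters reach, and Pramef12 had 7, the median of all promoters. The other 6 genes had 0 to 3. Each sequence covers a single start of its gene. For Pramel7 this is the start at chr2:87492418, inside the gene and downstream of its other annotated starts. The sequences at those other starts were not compared. Sequences of 3 genes without a summit at the promoter are given to set beside the windows of Pramel1 and Pramef12, all on the minus strand with CpGs in capitals: Pramef17 at chr4:143994320-143994619, Pramef25 at chr4:143950967-143951266 and Pramel7 at chr2:87492369-87492668.
Pramef17: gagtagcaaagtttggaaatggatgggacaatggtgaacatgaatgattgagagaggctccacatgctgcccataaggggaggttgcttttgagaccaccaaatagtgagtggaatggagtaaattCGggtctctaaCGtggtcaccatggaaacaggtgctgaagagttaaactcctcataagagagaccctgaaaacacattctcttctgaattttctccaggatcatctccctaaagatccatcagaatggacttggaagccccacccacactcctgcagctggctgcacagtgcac
Pramef25: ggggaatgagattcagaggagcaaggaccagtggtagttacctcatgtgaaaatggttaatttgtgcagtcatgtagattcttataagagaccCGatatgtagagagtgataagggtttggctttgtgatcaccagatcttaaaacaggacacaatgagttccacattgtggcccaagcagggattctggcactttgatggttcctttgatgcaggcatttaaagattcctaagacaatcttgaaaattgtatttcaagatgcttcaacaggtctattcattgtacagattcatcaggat
Pramel7: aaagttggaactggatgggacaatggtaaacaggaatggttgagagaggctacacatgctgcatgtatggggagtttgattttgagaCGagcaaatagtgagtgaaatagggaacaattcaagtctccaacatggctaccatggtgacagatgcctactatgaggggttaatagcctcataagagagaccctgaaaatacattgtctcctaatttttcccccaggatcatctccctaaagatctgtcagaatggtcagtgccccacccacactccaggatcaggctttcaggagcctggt
Pramef17 had 2 CpGs, and Pramef25 and Pramel7 had 1 each. The Pramef17 and Pramel7 promoters, on separate chromosomes, were identical at 76.4% of aligned positions, and those of Pramel4 and Pramel5 at 83.4%. All other pairs ranged from 46.5% to 53.7%.

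Among all autosomal RefSeq promoters with 0 to 3 CpGs, a range chosen after seeing the members, a GFP-negative summit was found at 12.3% and a GFP-positive summit at 6.95%. Among those with 7 or more CpGs it was found at 83.1% and 72.2%. Among those with 4 to 6 CpGs, a summit was found at 29.4% and 16.8%. The absence of summits from the 6 CpG-poor promoters is therefore what most promoters of like CpG number showed, and is not particular to the family. The summits at Pramel1, with 20 CpGs, are likewise what most promoters with 7 or more showed. Pramef12, with 7, lies at the lower edge of that open range. Whether most promoters of its CpG number have a summit was not tested.

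**Figure D5:**
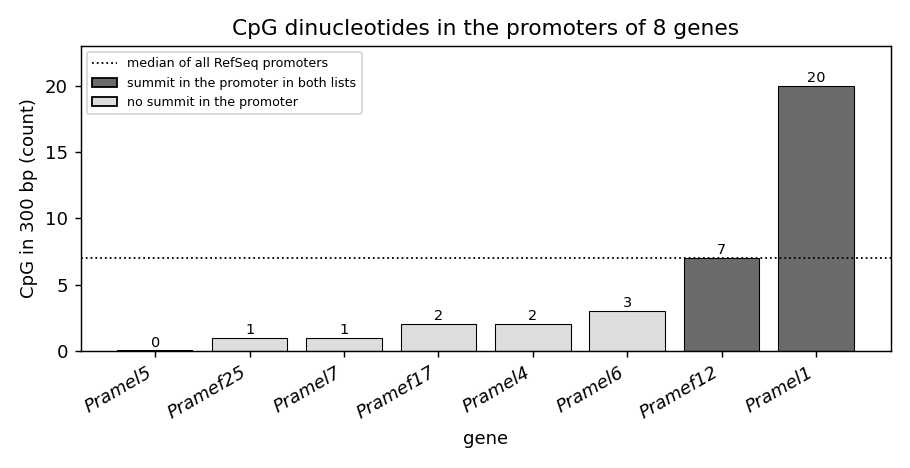
Number of CpG dinucleotides (y axis) in the 300-bp RefSeq promoter of 8 genes, dark where both lists had a summit in the promoter and light where neither had one, with a dotted line at the median of all promoters. The dark bars, Pramef12 with 7 and Pramel1 with 20, are at or above the line, and the light bars range from 0 to 3. Each RefSeq promoter covers a single start of its gene.

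The annotation holds 5 further genes named Pramel or Pramef, and their counts ranged from 0 to 3 GFP-negative and from 0 to 8 GFP-positive peaks. Those with the most peaks lie in the same stretch of chromosome 4 and share peaks with the members. Pramef20 had 3 and 8, Pramef12os 2 and 6, and Pramef6 1 and 5. On the X chromosome, Pramel3 had 0 in both lists.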

How the data were processed

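CUT&RUN was done with an anti-DPPA4 antibody (AF3730) on sorted cells, and groups were taken from the sample titles. The authors trimmed reads with bbduk, aligned them with STAR 2.7.10, setting each multimapping read at a single best or random position, removed duplicates with Picard 2.26.0, dropped blacklisted regions of mm10, and called peaks with MACS2 2.2.6, as the methods and processing notes state. The 2 replicates of a group were pooled in each deposited list. Its fold enrichment is the authors' ratio over background at the summit, and its −log10 q the authors' significance. The deposited summit offset gave the summit. The 2 IgG libraries were not used here, and their role in peak calling is not given in the sources used here. Unused per-sample columns numbered 0.

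Peaks were counted where any base lay within 50 kb of a gene body. The nearest peaks on either side of that limit were 44226 and 53852 bp away in the GFP-negative list, with fold enrichments of 2.95 and 4.03, and 48411 and 50581 bp away in the GFP-positive list, with 3.51 and 5.24. The background was 20807 autosomal protein-coding genes of GENCODE vM21. Copy numbers were counted on the GRCm38.p6 chromosomes, and counting was checked on simulated data (Python 3.11.15, pandas 2.3.3, Biopython 1.88). Promoter identity came from global alignment. No test was made, since pooled lists have no replicates. All 9 members were named, as were the strongest region near each gene or cluster, regions at members' promoters, and the 3 further family genes with the most peaks. The members, the gene groups and these choices were set with earlier results of these data known.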

Additional observations from a re-analysis of the deposited data

How the results depend on the processing

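At 100 kb in place of 50 kb, 24 GFP-negative peaks lay near the members. At a −log10 q of at least 5 there were 4 GFP-negative and 11 GFP-positive peaks, and the ratio of peak density in pluripotent and 2-cell genes to that in the rest was 0.179 in the GFP-negative list (0.384 as reported) and 0.646 in the GFP-positive list (0.999 as reported). Among the 10000 strongest peaks of each list, 1 peak of each lay near the members, both ratios were 0, and 50% of 2 regions were GFP-positive-specific. With summits of copy number 1 alone, 21 GFP-positive peaks were left and the ratios were 0.231 and 0.331 in the GFP-negative and GFP-positive list. The windows kept their full length there. With Pramel4 and Pramel5 in the rest, the ratios were 0.866 and 1.66. The GFP-positive ratio also changed sides of 1 under smaller changes, being 1.31 at 20 kb, 0.835 at 100 kb, 1.28 without Pramef8 and 0.900 without Pramef17, so no order of the groups is given for that list. Counting any overlap with the promoter, an alternative chosen after seeing the data, gave 5 members in the GFP-positive list. The remaining values for the family and the groups stayed within 1.5 times the reported count or density ratio, or within the interval of the reported share; this included leaving out each gene in turn, also chosen after seeing the data. Where a value moved for another reason than fewer or more peaks entering, the cause was not tested. Of 90 counts for single genes under these alternatives, 58 moved by more than 1.5 times. No paired analysis was possible because the replicates had been pooled before deposit. The unknown number of reads left after filtering behind each list limits every comparison between the lists.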
